A study of Mus musculus with 2 samples.

Results

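The genes described here are 33 genes of cholesterol synthesis, regulation, transport and turnover. They were chosen by name, as enzymes of the pathway or as genes that sense, carry, store or remove its product. All 33 were found, among 43346 Ensembl genes in the gene tables, of which 21474 are protein-coding. Total RNA was measured on postnatal day 0 in the midbrain of B6NCrl mice. There is 1 group of 2 animals, pup 1 and pup 3, each with 1 midbrain and 1 library. No allele, transgene or treatment is named for either pup. The labels give both pups the same donor identifier and record no sex. The libraries summed to 36934868 expected counts in pup 1 and 40769103 in pup 3. Levels are in TPM, a transcript abundance that is corrected for length and so can be compared between genes, and are given as mean ± SD over the 2 pups where no pup is named.

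Cholesterol is built from acetyl-CoA. Thiolase and synthase steps make HMG-CoA, which is reduced to mevalonate, and mevalonate is converted to isoprenoid units that are joined into farnesyl diphosphate. Farnesyl diphosphate is condensed to squalene, squalene is closed into lanosterol, and lanosterol is trimmed and rearranged to cholesterol. The pathway is controlled by the SREBP transcription factors, which are held in the endoplasmic reticulum by Scap and the Insig proteins when sterols are plentiful. The brain makes its own cholesterol because lipoproteins of the blood do not cross the blood-brain barrier, and apolipoprotein E carries cholesterol between its cells.

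Genes of the pathway are known to share promoter elements, among them sterol response elements and nearby CCAAT boxes, which bind the factor NF-Y. RefSeq promoter entries (build GRCm38.p6, 250 bases before to 50 bases after each annotated start, 300 bases in all) were read for 28 of the 33 genes. Fdps, Fdft1, Sqle, Abcg1 and Npc1 had no entry in the table. The letters CCAAT, on either strand, stood in 14 of 18 entries of synthesis enzymes (77.8%), against 37.4% of all 32851 entries and 38.2% of entries of protein-coding genes. By gene, 14 of 15 synthesis enzymes with an entry had a match (93.3%), all but Acat2, against 41.1% of all genes with an entry and 42.3% of protein-coding ones. Among the regulation, transport and turnover genes, 8 of 21 entries (38.1%) had one, which was 7 of 13 genes (53.8%). At least 2 copies stood in 9 of the 18 synthesis entries (50%), against 11.7% of all entries. The windows below show 150 bases that end just before the annotated start, 5′ to 3′ on the strand of the gene, for 5 synthesis enzymes and for 2 lipoprotein genes as a contrast. They were picked, with their matches known, from the windows that overlap no exon of GENCODE M21. Capitals mark CCAAT, or its reverse complement ATTGG, and in Hmgcs1 also a sterol response element.

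Hmgcs1: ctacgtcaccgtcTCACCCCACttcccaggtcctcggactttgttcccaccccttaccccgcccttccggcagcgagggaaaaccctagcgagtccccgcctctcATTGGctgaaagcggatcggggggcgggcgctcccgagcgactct
Mvk: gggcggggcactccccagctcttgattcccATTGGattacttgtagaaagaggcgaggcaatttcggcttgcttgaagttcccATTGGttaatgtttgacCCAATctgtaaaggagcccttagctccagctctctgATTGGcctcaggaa
Mvd: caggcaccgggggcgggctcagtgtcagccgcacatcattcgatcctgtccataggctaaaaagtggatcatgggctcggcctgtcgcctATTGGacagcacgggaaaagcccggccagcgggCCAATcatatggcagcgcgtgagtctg
Ebp: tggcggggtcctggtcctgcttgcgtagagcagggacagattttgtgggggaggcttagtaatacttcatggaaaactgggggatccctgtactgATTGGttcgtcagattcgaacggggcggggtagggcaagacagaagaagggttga
Sc5d: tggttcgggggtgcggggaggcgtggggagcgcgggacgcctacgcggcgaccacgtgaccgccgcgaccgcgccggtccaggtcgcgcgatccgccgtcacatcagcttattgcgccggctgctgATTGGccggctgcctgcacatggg
Apoe: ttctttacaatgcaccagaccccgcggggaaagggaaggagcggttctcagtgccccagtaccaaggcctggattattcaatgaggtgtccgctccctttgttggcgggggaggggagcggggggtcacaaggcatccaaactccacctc
Abca1: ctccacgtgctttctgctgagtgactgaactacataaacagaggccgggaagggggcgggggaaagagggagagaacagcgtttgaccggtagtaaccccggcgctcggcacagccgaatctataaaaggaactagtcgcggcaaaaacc

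In this order the windows lie at chr13:119690201-119690350 (plus strand), chr5:114444119-114444268 (plus strand), chr8:122443423-122443572 (minus strand), chrX:8193513-8193662 (minus strand), chr9:42264301-42264450 (minus strand), chr7:19699189-19699338 (minus strand) and chr4:53159896-53160045 (minus strand). Hmgcs1, HMG-CoA synthase, had the sterol response element TCACCCCAC starting 137 bases before its start and a CCAAT box 45 bases before it. Among the 28 genes with an entry, Hmgcs1 was the only one with a match to TCACNCCAC, which 1.24% of all entries held. Other forms of the element were not searched. Mvk, mevalonate kinase, had 4 CCAAT boxes in its window, and Mvd, the decarboxylase later in the pathway, had 2. The windows of Apoe and Abca1 had none, and none of the 5 entries of lipoprotein genes held a match within their 300 bases. The 3 entries of the liver X receptor genes had none either, whereas 4 of 5 SREBP regulation genes, both storage and turnover genes and Npc2 had a match. In the list of other intracellular sterol transfer genes, 7 of 9 genes with an entry (77.8%) had one. The GC box GGGCGG stood in 83.3% of synthesis entries, 61.9% of the entries of the other members and 35.7% of all entries (46.2% for protein-coding genes). Matches of different motifs can share bases, and such overlaps were not removed. Annotated starts were not matched to the transcripts read. In Pmvk, Insig2 and Srebf1, for example, the entries with a CCAAT match lie away from the start of the transcript with the highest TPM. The matches describe the letters in these windows and no more.

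In both pups 32 of the 33 genes reached 1 TPM, as did 62.1% of protein-coding genes. At 10 TPM or more there were 30 (39.2% of protein-coding genes), and at 100 TPM or more there were 7 (7.85%). The median of the genes was 55.57 TPM in pup 1 and 51.6 in pup 3 (53.6 ± 2.81, SD, n = 2), where the median of all protein-coding genes was 4.52 and 4.7. The 18 synthesis enzymes had a median of 62.9 ± 2.61, and all 18 reached 10 TPM in each pup. The 15 other genes had a median of 36.8 ± 1.92, with 12 at 10 TPM or more. Together the 33 genes held 0.453% of all TPM in pup 1 and 0.417% in pup 3, a sum of 4347 ± 254 TPM that dropped to 2392 ± 43.7 without Apoe. In bulk tissue, more cells of a type and more RNA per cell cannot be told apart.

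**Figure D1:**
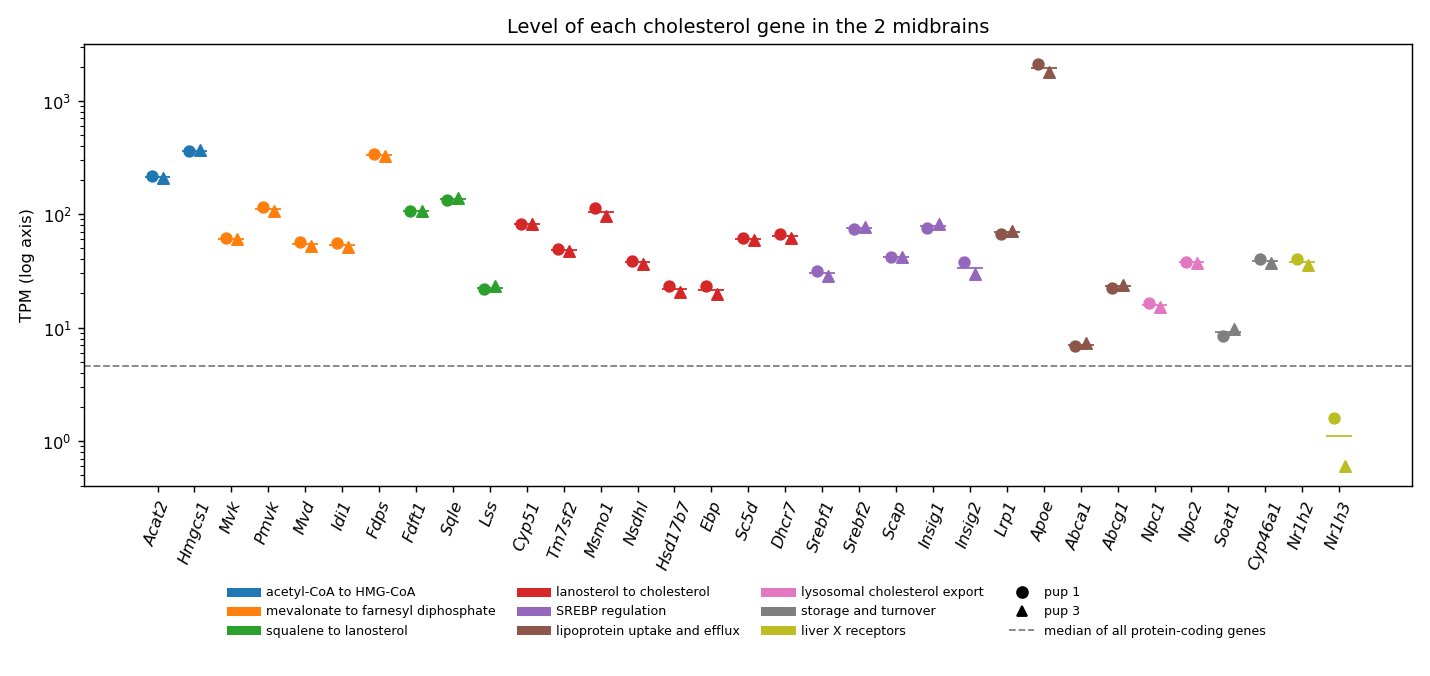
TPM of each of the 33 genes on a log axis, in pathway order and coloured by role, with circles for pup 1, triangles for pup 3 and a short line at their mean. The dashed line is the mean over the pups of the median of all protein-coding genes, and 32 of the 33 genes lie above it in both pups, with Nr1h3 below.

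Related genes or neighbouring steps were also compared in pairs within each library. A pair was called apart where the log2 ratio of TPM, after adding 0.1 to each value, met 3 conditions. Both libraries gave the same sign, the mean was over 1 and over 3 SD in size, and in each library the credibility intervals that the authors deposited for the 2 genes were separate. Of 21 pairs, 16 were called apart and 5 were not. No test stands behind these calls: with 2 animals the smallest p of an exact sign-flip test (two-sided) is 0.5.

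The highest synthesis gene stood at the start of the pathway. Hmgcs1 (ENSMUSG00000093930.1, chromosome 13, 119690379 to 119708260, mm10) makes HMG-CoA from acetoacetyl-CoA and was read at 356.74 TPM in pup 1 and 365.91 in pup 3. It was the highest enzyme of the pathway in both pups and lay at percentile 98.2 of protein-coding genes. Acat2, the cytosolic thiolase that makes acetoacetyl-CoA, was at 215.47 and 208.95 TPM. Its mitochondrial relative Acat1 was at 155 and 143.95 TPM, and the pair was not called apart, at a log2 ratio of 0.51 ± 0.044.

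The genes from mevalonate to farnesyl diphosphate ran from 53.6 ± 2.81 to 333 ± 7.47 TPM. Fdps, which joins the isoprenoid units into farnesyl diphosphate (chromosome 3, 89093588 to 89101959), stood far above the rest, at 338.06 TPM in pup 1 and 327.5 in pup 3. Pmvk, phosphomevalonate kinase, came next at 115.34 and 105.63 TPM. Mvk was at 61.98 and 60.01 TPM, Mvd at 56.77 and 52.76, and Idi1, the isomerase of isopentenyl diphosphate, at 55.57 and 51.6. These 3 genes lay close together, within the range of 51.6 to 61.98 TPM over both pups.

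Fdps feeds several branches, and the enzymes of the other branches were lower. Ggps1, which extends farnesyl diphosphate to geranylgeranyl diphosphate, was at 43.03 and 45.78 TPM, and Fdps exceeded it by 2.90 ± 0.095 on the log2 scale. The 12 genes of the dolichol, ubiquinone and prenylation branches had a median of 24.2 ± 0.562 TPM. They were led by the farnesyltransferase subunit Fnta (76.9 ± 1.65) and by Coq2 of ubiquinone synthesis (58.4 ± 0.856), with the prenyltransferase subunit Pggt1b lowest (6.59 ± 0.332). The isomerase paralog Idi2 had a count of 0 in both libraries. Against 3 counts per library, taken as the limit of a 0 count, Idi1 was 923-fold higher in pup 1 and 936-fold in pup 3. The lower ends of the 95% counting intervals were 750-fold and 761-fold.

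From squalene to lanosterol the levels were uneven. Fdft1, squalene synthase, had 106.71 TPM in pup 1 and 106.88 in pup 3. Sqle, squalene epoxidase and a known control point of the pathway, was at 134.45 and 139.44 TPM. The ratio of Fdft1 to Sqle was −0.36 ± 0.036, short of the threshold of 1. Lss, which closes the epoxide into lanosterol, was at only 21.81 and 23.15 TPM, and Sqle exceeded it by 2.60 ± 0.023. Fdft1 shares 774 exonic bases with Ctsb, a cathepsin gene on the opposite strand at 186.07 and 167.76 TPM. The sources used here do not say whether reads were counted by strand, so reads of that stretch cannot be assigned with certainty. The same holds for 109 bases of Srebf1 and 985 of Scap that face exons of Rai1 and 5830462I19Rik. It also holds for 166 bases of Cyp51 that face Akap9, a gene at 209.71 and 237.73 TPM. In Lss 381 bases face 4930483K19Rik, which was at 0.04 and 0 TPM.

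The 8 genes from lanosterol to cholesterol lay between 21.3 ± 2.47 and 104.8 ± 11.4 TPM. Msmo1, the sterol C4-methyl oxidase, was highest at 112.85 TPM in pup 1 and 96.79 in pup 3. Cyp51, lanosterol demethylase, followed at 82.2 and 82.19 TPM. On coding transcripts only the order was the other way, with Cyp51 at 81.9 ± 0.240 and Msmo1 at 71.8 ± 3.80 TPM. Dhcr7, the last reductase of one arm of the pathway and the gene mutated in Smith-Lemli-Opitz syndrome, was at 67.5 and 62.1 TPM. Sc5d, the desaturase that acts just before Dhcr7, was at 61.24 and 59.18 TPM, and this pair was not apart (log2 ratio 0.10 ± 0.050).

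The remaining 4 genes of this stretch were lower. Tm7sf2, a sterol reductase, was at 49.62 and 46.85 TPM, and Nsdhl, a dehydrogenase encoded on the X chromosome, was at 38.7 and 36.25. Hsd17b7, a ketosteroid reductase, was at 23.08 and 20.67 TPM. Ebp, the sterol isomerase and also X-linked, was at 23.08 and 19.58 TPM, the lowest mean of the 18 enzymes, though Lss was lower in pup 1. On coding transcripts only, Lss (11.2 TPM) and Hsd17b7 (13.2) had lower means than Ebp (17.2).

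Relatives of these enzymes were read beside them. Lbr, a nuclear envelope protein with the same sterol reductase activity as Tm7sf2, was at 17.19 and 17.21 TPM, and Tm7sf2 led it by 1.48 ± 0.060. That call was lost on expected counts not divided by length, where the ratio was 0.06. Tm7sf2 shares 532 exonic bases with Vps51 on the same strand, a gene at 88.72 and 81.41 TPM, and the counts of Tm7sf2 were not whole. Ebpl, a paralog of Ebp, was at 16.46 and 16.57 TPM and was not apart from it (0.36 ± 0.17).

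Srebf2, the SREBP gene best known for driving cholesterol genes (chromosome 15, 82147181 to 82205379), was read at 74.33 TPM in pup 1 and 77.21 in pup 3. Srebf1, whose products act more on fatty acid genes, was at 31.64 and 28.41 TPM. The pair was apart in both libraries, with Srebf2 higher by 1.33 ± 0.15. Scap, the escort protein that carries SREBPs to the Golgi, was at 41.67 and 42.19 TPM. Insig1, itself a known SREBP target, was at 75.17 and 81.34 TPM, and its relative Insig2 was at 37.8 and 29.78. Insig1 exceeded Insig2 by 0.99 in pup 1 and 1.45 in pup 3 (1.22 ± 0.32), so the call rests on pup 3 and was lost with pup 1 alone.

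The proteases and degradation factors around this switch were also present. All 10 genes of that list reached 10 TPM in each pup, with a median of 46.0 ± 0.643. Pgrmc1, a sterol-binding membrane protein, led it at 654 ± 5.33 TPM, followed by the ubiquitin ligase Rnf145 at 87.1 ± 1.29, and Rnf139 was lowest at 12.1 ± 0.332. Fatty acid synthesis and desaturation genes, the other main branch under SREBP control, had a median of 54.4 ± 1.07 over 11 genes. They were led by the desaturases Fads2 (259 ± 4.26) and Scd2 (192 ± 0.990), while Scd1, the desaturase that dominates in liver and skin, was lowest at 6.21 ± 0.276.

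Apoe, the main apolipoprotein of the brain (ENSMUSG00000002985.11, chromosome 7, 19696109 to 19699188), was the highest of the 33 genes. It was read at 2103.31 TPM in pup 1 and 1805.51 in pup 3, at percentile 99.9 and 99.8 of protein-coding genes. Clu, or apolipoprotein J, was at 226.7 and 189.95 TPM. Both were higher in pup 1, and their log2 ratio moved little (3.23 ± 0.025). Apoa1, the main apolipoprotein of plasma HDL, was at 4.67 and 5.29 TPM, lower than Apoe by 8.59 ± 0.28 on the log2 scale.

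Among other lipoprotein genes outside the 33, 11 of 12 were read (Cetp was not matched), with a median of 16.01 ± 0.120 TPM. Clu (208 ± 25.99) and Apod (203 ± 15.7) led them, and the lipoprotein lipase gene Lpl was lowest at 2.85 ± 0.686. Lrp1, a large endocytic receptor for lipoproteins (chromosome 10, 127538161 to 127621148), was read at 67.22 TPM in pup 1 and 70.91 in pup 3. Vldlr and Lrp8, receptors for both lipoproteins and reelin, were at 31.5 ± 1.27 and 28.4 ± 1.94. Lrp1 was called apart from both, by 1.13 ± 0.11 and 1.28 ± 0.044. On protein-coding transcripts only, these ratios were 0.38 and 0.66 and neither call was kept.

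The efflux transporters were lower than Apoe and Lrp1. Abca1, which loads cholesterol onto lipid-poor apolipoproteins, had 6.83 TPM in pup 1 and 7.34 in pup 3. Abcg1, which moves sterols to formed particles, was at 22.46 and 23.83 TPM. Abca1/Abcg1 was the single pair called apart with its second gene higher, at −1.69 ± 0.012, and on expected counts not divided by length the ratio was −0.18 and the call was lost. Abcg4, the neural relative of Abcg1, was at 23.69 and 23.97 TPM and was not apart from it (−0.043 ± 0.048).

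Npc2, the soluble lysosomal carrier that hands cholesterol to Npc1, had 38.13 TPM in pup 1 and 37.22 in pup 3. Npc1, the membrane exporter mutated in most Niemann-Pick type C disease, was at 16.37 and 15.23 TPM. Npc2 led by 1.25 ± 0.049, a call lost on counts not divided by length (0.75). Npc1 shares 511 exonic bases with Rmc1 on the opposite strand, a gene at 28.65 and 25.33 TPM. Genes of intracellular sterol transfer had a median of 15.1 ± 3.81 TPM over 13 genes, led by Gramd1a (115 ± 7.53), which moves cholesterol from the plasma membrane to the endoplasmic reticulum, and by the oxysterol-binding family gene Osbpl2 (57.6 ± 3.26).

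Storage and removal differed in level. Soat1, which esterifies cholesterol for storage, had 8.47 TPM in pup 1 and 9.65 in pup 3. Its relative Soat2, an enzyme of gut and liver and the lowest gene of the sterol transfer list, had only 5 and 3 counts. Per length, Soat1 was 77 times as high in pup 1 (95% counting interval 32.7 to 237) and 161 times in pup 3 (58.6 to 835). Cyp46a1, the neuronal hydroxylase that turns cholesterol into a form that leaves the brain, was at 40.35 and 36.94 TPM.

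Other sterol hydroxylases were far below Cyp46a1. Cyp27a1 was at 1.94 and 2.17 TPM, lower by 4.17 ± 0.20 on the log2 scale, and Ch25h was at 0.75 and 0.36 TPM, lower by 5.95 ± 0.54 on 21.7 and 11.5 counts. The list of 6 had a median of 1.64 ± 0.0177, with Cyp7b1 (6.12 ± 0.255) and Cyp39a1 (4.06 ± 0.156) highest. Cyp7a1, the rate-limiting enzyme of bile acid synthesis in liver, had a count of 0 in both libraries, which allows up to 3 counts in each.

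The liver X receptors sense oxysterols and induce efflux genes. Nr1h2, the broadly expressed LXR beta, had 40.12 TPM in pup 1 and 35.42 in pup 3. Nr1h3, LXR alpha, was at 1.61 and 0.6 TPM, on 59 and 26 counts, and was the single member below the median of protein-coding genes. The pair was apart by 5.11 ± 0.78.

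**Figure D2:**
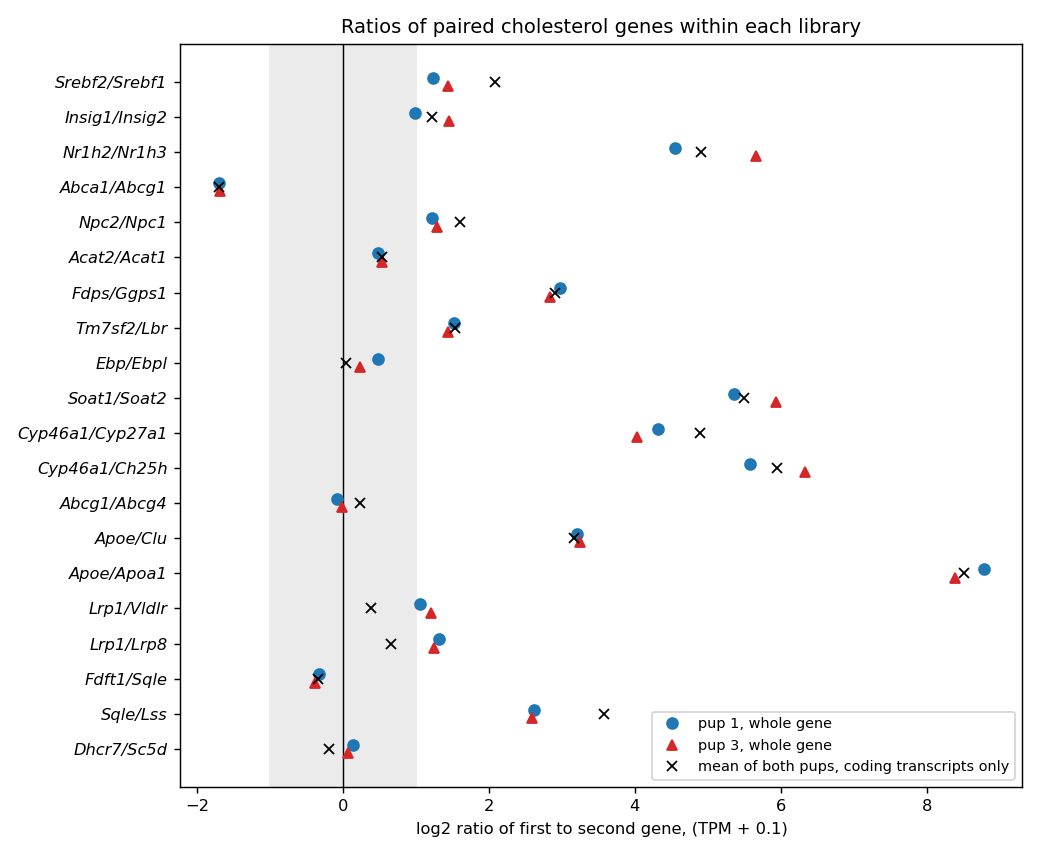
Log2 ratio of the first to the second gene of 20 pairs in each library (circles pup 1, triangles pup 3), with crosses for the mean of both pups on protein-coding transcripts only; Idi1/Idi2 is left out because Idi2 had no counts. The grey band spans a ratio of 1 in either direction, and Lrp1/Vldlr and Lrp1/Lrp8 lie outside it as whole genes and inside it on coding transcripts.

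The transcript tables show how much of each gene was assigned to transcripts annotated as protein-coding. Of the 33 genes, 24 had at least 2 transcripts and 9 had 1. The same transcript led in both pups for 22 of the 24, against 90.8% of 10218 genes with at least 2 transcripts that reached 1 TPM in each pup. Under 80% of the gene's TPM lay on coding transcripts in both pups for 7 of the 24. The share was 27.5% of 9744 such protein-coding genes, so the members stood close to the background. The 24 members were not filtered at 1 TPM and include Nr1h3, at 0.6 TPM in pup 3.

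Lrp1 was the lowest of these. A retained-intron transcript of 763 bases, Lrp1-208, held 45.9% ± 0.45 of its TPM, and the full-length coding transcript Lrp1-201 of 14888 bases held 29.6% ± 0.25. Coding transcripts of Lrp1 came to 24.04 TPM in pup 1 and 27.3 in pup 3, which was 37.1% ± 1.93 of the gene. In expected counts the order was the reverse, with 6766 and 7890 on Lrp1-201 and 471 and 550 on Lrp1-208, since TPM divides by length. Lrp1 was the single member led by a transcript that is not coding.

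For Lss 50.1% ± 2.77 lay on coding transcripts, or 11.2 ± 0.141 TPM, and the retained-intron transcript Lss-204 carried 19.7% ± 1.47. The share was 59.6% ± 1.38 for Srebf1 and 60.3% ± 5.2 for Hsd17b7. For Msmo1 it was 68.7% ± 3.82, with 28.3% ± 3.88 on the noncoding transcript Msmo1-206. Nr1h2 stood at 71.6% ± 4.03 and Npc1 at 78.3% ± 0.53. With coding transcripts only, Srebf2 exceeded Srebf1 by 2.08 ± 0.11 and Sqle exceeded Lss by 3.58 ± 0.055, wider gaps than for whole genes.

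Insig2 and Nr1h3 were the exceptions to a shared lead. Insig2-201 led in pup 1 with 37.8% of the gene, while Insig2-208 led in pup 3 with 46.3%, and both are coding. Nr1h3-201 held 41.8% in pup 1 and 0% in pup 3, where Nr1h3-202 held 70.8%, on 26.4 and 17.7 counts. At such counts the assignment to transcripts is uncertain.

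**Figure D3:**
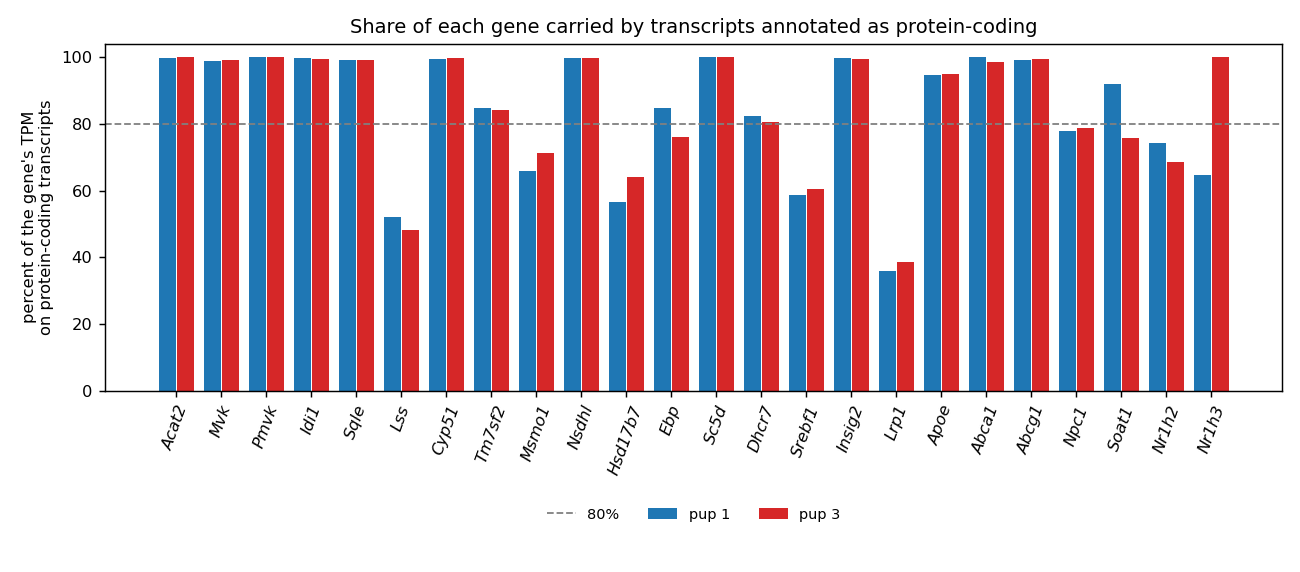
Percent of each gene's TPM on transcripts annotated as protein-coding, for the 24 genes with at least 2 transcripts, as paired bars for pup 1 and pup 3 from 0. The dashed line is 80%, and Lss, Msmo1, Hsd17b7, Srebf1, Lrp1, Npc1 and Nr1h2 lie under it in both pups.

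The pups differed little in these genes, about as little as in all genes compared. The difference was taken as log2 TPM of pup 3 minus pup 1, after adding 0.1, over genes whose expected counts averaged 100 or more, which 32 of the 33 passed. None of the 32 exceeded 0.5 in size, against 3.18% of 13318 genes (2.52% higher and 0.661% lower in pup 3), and none exceeded 1, against 0.315% (0.218% higher and 0.0976% lower). The median size of the difference was 0.098 for the 32 genes and 0.110 for all genes. Among the 32 genes the extremes were −0.34 for Insig2 and 0.19 for Soat1. Soat1 was 0.078 with TMM scaling, 0.080 with DESeq2 size factors and −0.090 on coding transcripts, so its sign was not stable. With 1 library per pup there is no replicate check on these differences.

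The signs leaned one way. Of the 32 genes 21 were lower in pup 3 (65.6%), where 44.9% of all genes were, and their median was −0.05 against 0.02 for all genes. Scaling expected counts with edgeR's TMM factors gave 23 of 32 lower (71.9%), but then 53.1% of all genes were lower too. DESeq2's size factors gave 23 of 32 and 52.8%. Among synthesis enzymes 14 of 18 were lower in pup 3 by TPM and 15 of 18 by either count scaling.

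Along the pathway, all 5 genes from mevalonate to farnesyl diphosphate were lower in pup 3, by −0.05 (Fdps) to −0.13 (Pmvk). All 8 genes from lanosterol to cholesterol were lower, though Cyp51, at −0.00018, hardly differed, and Ebp (−0.24) and Msmo1 (−0.22) stood furthest. The 95% counting intervals on the count ratio spanned both signs for Cyp51, Tm7sf2, Hsd17b7, Sc5d and Ebp (−0.33 to 0.012). Those of Msmo1, Nsdhl and Dhcr7 did not. On coding transcripts only, Cyp51 and Hsd17b7 changed sign, to 0.0060 and 0.016, while Ebp was −0.39 and Msmo1 −0.11. The 3 genes from squalene to lanosterol were higher in pup 3, from 0.0023 for Fdft1 to 0.086 for Lss. The counting intervals of all 3 also spanned both signs. Fdft1 was −0.022 with TMM scaling and Lss was −0.025 on coding transcripts, so neither sign was stable.

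The deposited credibility intervals of the pups did not overlap for 5 of the 32 genes, against 20.3% of all genes. Apoe, Pmvk and Msmo1 were lower in pup 3 (7.49% of all genes were), and Hmgcs1 and Insig1 were higher (12.8%). These intervals cover the assignment and counting of reads in 1 library and not differences between animals. They are set around the posterior mean, so the TPM itself may lie outside, as it does for Apoe. For Apoe they ran from 2030 to 2075 TPM in pup 1 and from 1744 to 1784 in pup 3, a difference of −0.22.

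By TPM, Insig2 was the nearest of the 32 genes to the threshold of 0.5. Its counts were 1296 and 1256, which gave −0.20 with TMM scaling, where Apoe (−0.24) was nearer, and its effective length was 1483 bases in pup 1 and 1669 in pup 3. Nr1h3, left out by the count filter, differed by −1.29, with a 95% counting interval on its count ratio of −2.05 to −0.64.

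**Figure D4:**
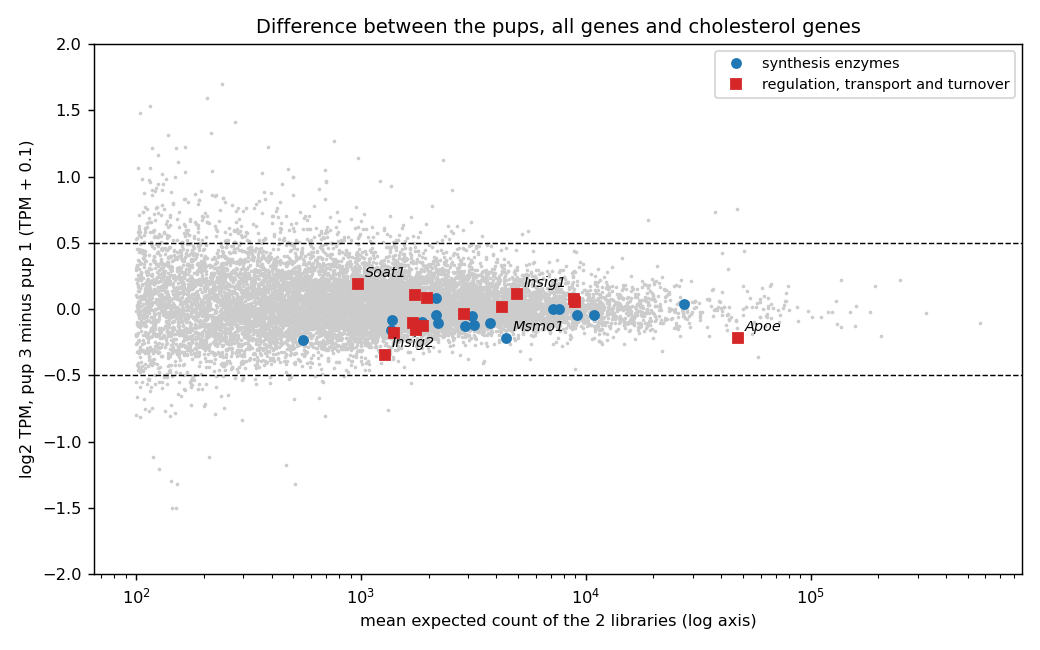
Difference in log2 TPM, pup 3 minus pup 1, against the mean expected count on a log axis, for all genes whose counts averaged 100 or more (grey; 9 genes lie outside the axis limits of 2) and for synthesis enzymes (circles) and the other members (squares). Dashed lines mark 0.5 in either direction, and all 32 members lie between them.

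Markers of tissue and cell type were read in the same libraries. Of 9 midbrain markers 8 reached 1 TPM in each pup, the highest being Tcf7l2 (685 ± 57.5) and Gata3 (78.1 ± 3.54). The 10 astrocyte markers, led by Aldoc and Gja1, summed to 726.77 TPM in pup 1 and 622.01 in pup 3, with 7 of 10 lower in pup 3 and none at 0. That sum differed by −0.22 on the log2 scale, and Aldoc, its highest gene, was at 261.39 and 191.05 TPM. The 5 endothelial markers differed by −0.21 in sum and the 5 markers of oligodendrocyte precursors by −0.14, with 5 of 5 lower in each list. The 8 microglia markers differed by −0.12, with 6 of 8 lower. The sums of several other lists were also lower in pup 3, though their genes did not all share the sign. Myelinating oligodendrocyte markers differed by −0.12 in sum (4 of 7 lower). Mural markers differed by −0.15 (2 of 4 lower), and meninges and fibroblast markers by −0.06 (4 of 5 lower). Neuron (−0.04, 3 of 7 lower) and radial glia markers (−0.03, 2 of 6 lower) differed less. Midbrain (0.12, 5 of 9 lower) and choroid plexus markers (0.83, 2 of 4 lower) were higher in sum in pup 3, though their signs were split. Most of the midbrain sum was Tcf7l2, at 644.77 and 726.04 TPM. In the choroid plexus list Ttr was at 0.85 and 5.16 TPM, on 22 and 146 counts. Erythroid (0.10, 1 of 5 lower) and border macrophage markers (0.02, 0 of 4 lower) were also higher in sum. The 7 markers of myelinating oligodendrocytes, cells that use much cholesterol, summed to 97.2 ± 5.91 TPM, and 4 of the 7 reached 1 TPM in each pup, led by Cnp (60.1 ± 6.51) and Mbp (20.6 ± 0.643). All 5 hypothalamus markers were higher in pup 3, with a sum of 162.44 and 366.37 TPM. Xist, expressed from the inactive X chromosome, was read with 2.26 and 10434 counts in pups 1 and 3, and the Y-linked Ddx3y with 2618 and 0. These counts read as male in pup 1 and female in pup 3. With 1 library per pup, sex, tissue content and other traits of the pups cannot be told apart. Their part in the differences between the pups, the X-linked Nsdhl and Ebp included, was not tested.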

How the data were processed

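Total RNA was sequenced from 1 group of 2 pups, with 1 library each. Per the labels, RNA above 200 nt was used, with 10 ng as starting material. A text record deposited beside the tables names transcriptome alignments, build mm10 and GENCODE annotation M4. The sources used here do not name the program or say whether strand was used.

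The authors deposited expected counts, TPM scaled over all features of a file, and posterior mean TPM. The deposited bounds of the credibility interval, treated here as a signal on the TPM scale, have no stated level. For each transcript the authors' tables give its share of the gene's TPM in percent. Symbols, transcript types and coordinates came from GENCODE M21 of the same build, matched on Ensembl identifiers without version (42462 of 43346 genes; 169 of 169 transcripts of the members). Promoters came from RefSeq.

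The 33 members, the gene lists and the pairs were chosen with earlier results of these data known, and so support nothing by their choice. All 33 members and both genes of every pair are named, with the 2 highest and the lowest genes of each other list and up to 2 of each marker list. Xist, Ddx3y and the genes whose exons overlap a member lie outside this rule and were named after their values were seen. A further pair that was planned is not reported here. Counts called whole (tolerance 0.005) were found for 24 members; reads were shared with other genes for 9: Acat2, Idi1, Fdps, Fdft1, Lss, Tm7sf2, Srebf1, Scap and Npc1. Expected counts were rounded for edgeR 4.0.16 and DESeq2 1.42.0 (R 4.3.3), which gave scaling factors and, from edgeR, a biological coefficient of variation of 9.28% over 17846 genes. Other steps used SciPy 1.17.1, pandas 2.3.3 and numpy 2.4.6 under Python 3.11.15. Intervals on counts are exact (Clopper-Pearson) at 95%, and intervals and floors cover counting error only, because, with no molecular identifiers, reads are not independent molecules. The labels give separate pups, and the SD over 2 pups is the only measure of spread between animals. It includes any difference of sex or tissue content between them. Alternatives varied the pseudocount, the count filter, the scaling, the TPM estimate, the division by length and the pup left out.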

Additional observations from a re-analysis of the deposited data

How the results depend on the processing

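No paired analysis was possible because there is 1 group. The median TPM of the 33 genes was 53.6; it was 64.2 when TPM was rescaled over nuclear protein-coding genes and 42.1 on protein-coding transcripts only, an alternative chosen after seeing the data. With 1 pup left out, the median ran from 51.6 to 55.57, 30 genes stayed at 10 TPM or more either way, and the number of pairs called apart was 15 to 16. It was 13 on expected counts not divided by length and 14 on coding transcripts. Both of these settings were called without the condition on credibility intervals. With 1 pup left out, the conditions on sign and SD could not apply. These counts therefore rest on looser rules than the main call. Without the filter on low counts, 1 gene differed by over 0.5 between the pups (Nr1h3). With a pseudocount of 1 the difference of Nr1h3 was −0.71.

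On expected counts not divided by length, Abcg1/Abcg4 reversed to 0.26, Acat2/Acat1 to −0.10 and Ebp/Ebpl to −0.52, and Abca1/Abcg1 (−0.18), Npc2/Npc1 (0.75) and Tm7sf2/Lbr (0.06) were no longer apart. On coding transcripts, Abcg1/Abcg4 reversed to 0.23 and Dhcr7/Sc5d to −0.19, and Lrp1/Lrp8 (0.66) and Lrp1/Vldlr (0.38) were no longer apart. With pup 1 alone, Insig1/Insig2 fell to 0.99. The pairs that reversed were not called apart as whole genes either, and the cause was not tested. Neither a pseudocount of 0.01 or 1 nor posterior mean TPM changed the number of pairs apart, 16. With 2 animals, differences of the size of the spread between pups were not detectable, and Nr1h3, Ch25h and Soat2 rest on few counts.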
